A study of Mus musculus with 27 samples.

Results

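Gene expression in the fetal brain of AKR/J mice was compared with that of Cav1-null mice on gestational day 15 (d15), with 3 libraries of each strain and 55416 genes in the table of read counts. The 6 libraries were chosen by the strain and day in their labels, out of 27 libraries of 3 strains on d12, d15 and d17. Of these, 20172 genes passed edgeR's filterByExpr, which drops genes of low count, and were tested. AKR/J is an inbred strain prone to leukemia, and Cav1-null is the strain B6.Cg-Cav1tm1Mls/J, which carries a targeted Cav1 allele and is congenic with C57BL/6J. The loss of Cav1 and all other differences between the genomes of the strains therefore cannot be told apart. C57BL/6J mice, which carry the normal Cav1 gene, are given beside the comparison where they help to place a value. Both groups were whole brains of untreated fetuses labelled female, dissected on d15 with the day of the vaginal plug as day 1, from dams of about 8 weeks. The labels do not say whether the 3 fetuses of a group came from separate litters, so p-values measure the spread between these samples, which may be technical.

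In the mouse, d15 lies within the weeks in which radial glia, the stem cells that line the ventricles, divide and give rise to intermediate progenitors and neurons, and in which young neurons begin to make receptors and synaptic proteins. Genes of dividing cells therefore fall in the whole brain as gestation proceeds, and genes of maturing neurons rise. The product of Cav1, caveolin-1, forms the coat of caveolae together with the cavin proteins, and cells of vessels, fat and muscle are rich in these membrane pits.

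Levels are in CPM (reads of the gene per 1000000 reads of the library), and depth was 26846313 to 30160663 reads on genes in the 6 libraries. Fold changes are on the log2 scale, AKR/J over Cav1-null, from edgeR's quasi-likelihood test after TMM scaling, and a gene was called differentially expressed (DE) at a Benjamini-Hochberg adjusted p under 0.05. In bulk tissue, fewer cells of a type and less RNA per cell cannot be told apart, and this holds for every gene below. Reads of both strains were mapped to GRCm39. The paper describes wide genetic differences between AKR/J and C57BL/6J, with which Cav1-null is congenic. The part of such variants in how reads were mapped and counted was not tested, for genes or for junctions.

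Some AKR/J libraries stood apart from the rest, and many of the counts and values that moved without them are given with and without them. AKR/J replicate 3 had 3.42 CPM of Xist, the RNA that coats the inactive X chromosome, against 5453 and 5712 CPM in replicates 1 and 2 and 4642 to 6291 CPM in Cav1-null. Transcripts of Y chromosome genes were at 0 in that library, and Kdm6a, which escapes X inactivation, was at 71.7 CPM against 104 and 105 CPM in the other two AKR/J libraries. AKR/J replicate 2 held more RNA of tissues outside the brain. Its summed level of 15 connective tissue and cartilage markers was 1991 CPM, against 276 and 252 CPM in replicates 1 and 3 and 202 to 309 CPM in Cav1-null. For 14 skeletal muscle markers, the sum was 181 CPM in that library and 12.5 to 34.4 CPM in the other 5, and for 13 markers of epidermis, lens and pigment cells it was 308 CPM against 5.85 to 22.7 CPM. The hindbrain and spinal cord content also differed within both strains. The summed level of 9 Hox genes, which mark these regions, was 13.0, 37.6 and 181 CPM in AKR/J and 17.1, 40.1 and 1.65 CPM in Cav1-null. The sum of 10 neuron markers, 5018 to 6945 CPM against 6635 to 6667 CPM in Cav1-null, showed neural tissue in all 6 libraries, and placenta markers summed to at most 6.03 CPM.

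On d15, 3894 of 20172 genes were DE, or 19.3%, of which 1937 (9.6%) were higher and 1957 (9.7%) lower in AKR/J. These percentages are the background for every count below. The difference was 2-fold or more in 568 of the higher and 613 of the lower genes, and its median size was 0.67 and 0.65 on the log2 scale. The median over all tested genes was 0.01. In 3888 of the DE genes, or 99.8%, the 3 libraries of AKR/J lay entirely above or below the 3 of Cav1-null, which was so for 41.6% of all tested genes. At an unadjusted p under 0.05 there were 7080 genes (35.1%). Of the libraries of C57BL/6J, replicate 1 held 5559 CPM of connective tissue markers and replicate 3 held 147 CPM of the Hox genes, so single values of that strain are given with this in view. Without AKR/J replicate 2 there were 4503 DE genes, without replicate 3 there were 3584, and without both there were 2659. The fit without both holds a single AKR/J library, replicate 1, which is assumed to vary like the Cav1-null libraries, so its calls below carry no measure of the spread within AKR/J. Leaving out a Cav1-null library lowered the count more, to 1944, 1746 and 1930 without replicates 1, 2 and 3. The mean of C57BL/6J lay nearer to Cav1-null than to AKR/J for 685 (35.4%) of the genes higher in AKR/J and for 476 (24.3%) of those lower in AKR/J.

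**Figure D1:**
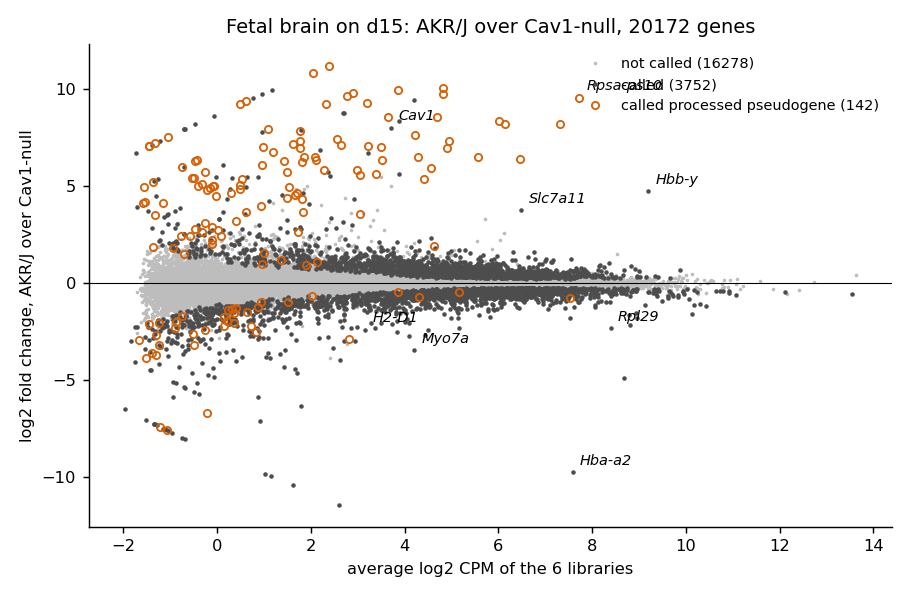
Log2 fold change of AKR/J over Cav1-null on d15 against the average log2 CPM of the 6 libraries, 1 point per tested gene, with genes not called in light grey, DE genes in dark grey and DE processed pseudogenes as orange circles. The 1937 higher and 1957 lower genes are almost equal in number, while the tail of very large changes is longer above 0, with 146 genes at 3 or more against 85 at -3 or less.

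The labels were first checked on Cav1 (ENSMUSG00000007655, chr6:17306140-17341451, plus strand, GRCm39). Its level was 25.4, 38.0 and 15.8 CPM in AKR/J and 0, 0.206 and 0.0718 CPM in Cav1-null, from 0, 6 and 2 reads. All 3 AKR/J libraries were far above all 3 Cav1-null libraries, with a log2 fold change of 8.02 (SE 0.58, adjusted p = 7.87e-05), and C57BL/6J had 18.3, 11.5 and 17.5 CPM. The reads that span the introns of Cav1 gave the same picture. Both spliced exon boundaries in the junction table are printed below, 15 bases on each side, since they are the parts of the transcript by which a spliced Cav1 RNA is recognised. Lower case is the upstream exon and capitals the downstream exon.
Cav1 intron chr6:17306479-17307879: tacgtagactccgagGGACATCTCTACACT
Cav1 intron chr6:17308045-17339111: gacgacgtggtcaagATTGACTTTGAAGAT
The upper boundary was spanned by 40, 57 and 16 reads in AKR/J and the lower by 62, 77 and 29, while neither had a read in the 3 Cav1-null libraries. With 0 reads seen, up to 3 reads over the group remain possible.

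The partner of Cav1 moved the other way. Cav2 (caveolin-2, chr6:17281026-17289877), which assembles with caveolin-1 and lies just upstream, was at 7.88, 10.5 and 7.79 CPM in AKR/J and 15.7, 19.9 and 25.3 CPM in Cav1-null. It was higher in every Cav1-null library (log2 fold change -1.25, SE 0.20, adjusted p = 0.00439), and C57BL/6J, at 7.8, 4.98 and 6.91 CPM, lay with AKR/J. Pacsin2, a membrane-bending protein of caveolae, was slightly higher in AKR/J (0.38, SE 0.09, adjusted p = 0.0202), and not called when AKR/J replicates 2 and 3 (0.35) or any Cav1-null library was left out. The other 6 tested caveola components did not pass. Among them Cavin1, the coat protein of caveolae, was at 11.0, 46.2 and 11.7 CPM in AKR/J and 7.86, 10.6 and 7.07 CPM in Cav1-null (adjusted p = 0.0901). Its high value was in replicate 2, the library with connective tissue RNA.

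Genes around Cav1 were mostly lower in AKR/J where they were called. Of 33 tested genes within 5 Mb of Cav1, 10 were lower and 0 higher, with a median log2 fold change of -0.28, and of 168 within 20 Mb, 22 were lower and 18 higher, with a median of -0.06. Gm15581 (chr6:17206822-17385603), a long noncoding RNA annotated on the minus strand across Cav2 and Cav1, had no reads in AKR/J and 2.79, 3.33 and 5.75 CPM in Cav1-null, so that it was at least 118-fold lower in AKR/J when 3 reads over the group are taken as the limit. In C57BL/6J it was at 0.0503, 0 and 0 CPM, so that on d15 nearly all reads on this gene came from the strain with the targeted allele. Whether the counting used strand is not given in the sources used here, and reads of overlapping genes on opposite strands cannot then be told apart. Further called neighbours were Gpr85, a brain receptor without a known ligand (-0.84, SE 0.09, adjusted p = 0.000725), Cttnbp2, a postsynaptic cortactin-binding protein (-0.76, SE 0.16, adjusted p = 0.0132), Tmem106b, a lysosomal membrane protein (-0.38, adjusted p = 0.0258), and Capza2, a subunit of the actin capping protein (-0.31, adjusted p = 0.0354). The others were 2610001J05Rik (-0.85), the long noncoding RNA 1110019D14Rik (-1.96) and the transcripts of unclear status Gm42583 (-1.21) and Gm43843 (-1.04). When AKR/J replicates 2 and 3 were left out, Cttnbp2 was at -0.40, and Capza2 (-0.25), Gm42583 (-0.94) and Gm43843 (-0.50) were not called.

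**Figure D2:**
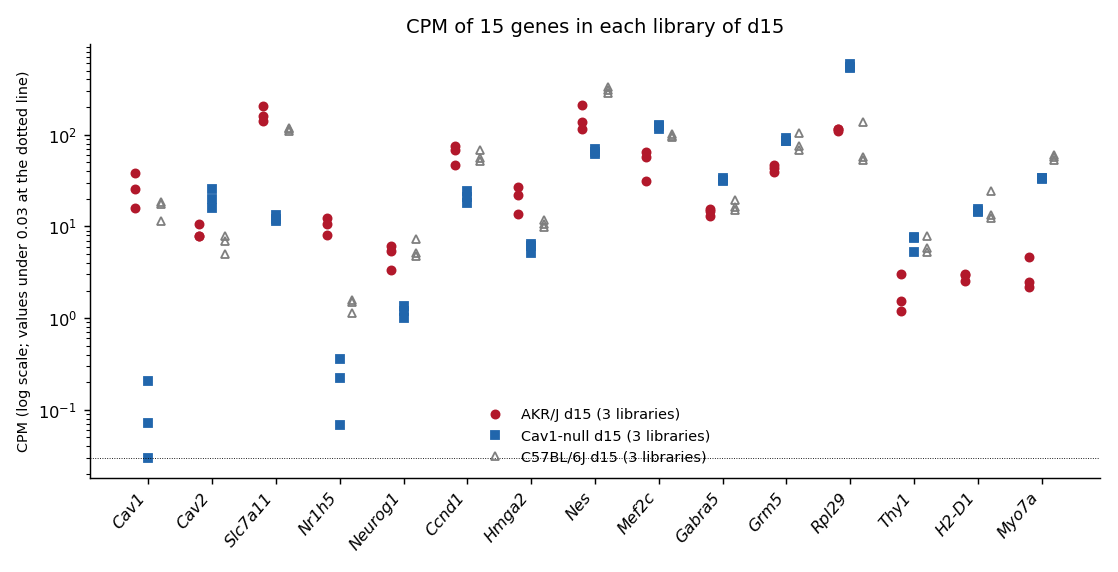
CPM on a log scale of 15 genes in the 3 libraries of AKR/J, Cav1-null and C57BL/6J on d15, 1 point per library. AKR/J and Cav1-null do not overlap in any of these genes, and Cav1, Slc7a11 and Nr1h5 show the widest gaps upward.

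The DE genes were next set against the course of normal development, taken from libraries that the comparison did not use. In C57BL/6J, 5170 of 19762 genes (26.2%) changed from d12 to d17, of which 2865 (14.5%) rose and 2305 (11.7%) fell. Of the genes that fell with age in C57BL/6J, 2279 were tested on d15, and 888 of them (39.0%) were higher in AKR/J and 25 (1.1%) lower, with a median log2 fold change of 0.36. Of those that rose with age, 2731 were tested, and 17 (0.622%) were higher in AKR/J and 889 (32.6%) lower, with a median of -0.44. Among the 14191 genes with no call in C57BL/6J the shares were 6.67% and 7.07%, with a median of 0.02. The size of the difference followed the size of the change with age. It was 1.44 in the median of the 80 genes that fell by more than 3 on the log2 scale, 0.74 for those that fell by 2 to 3, -0.66 for those that rose by 2 to 3 and -0.95 for the 337 genes that rose by more than 3. Without Cav1-null replicate 2, 416 of the genes that fell were called higher and 466 of those that rose lower, with 23 called the other way. With 1 model of all 27 libraries these counts were 464, 327 and 22.

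**Figure D3:**
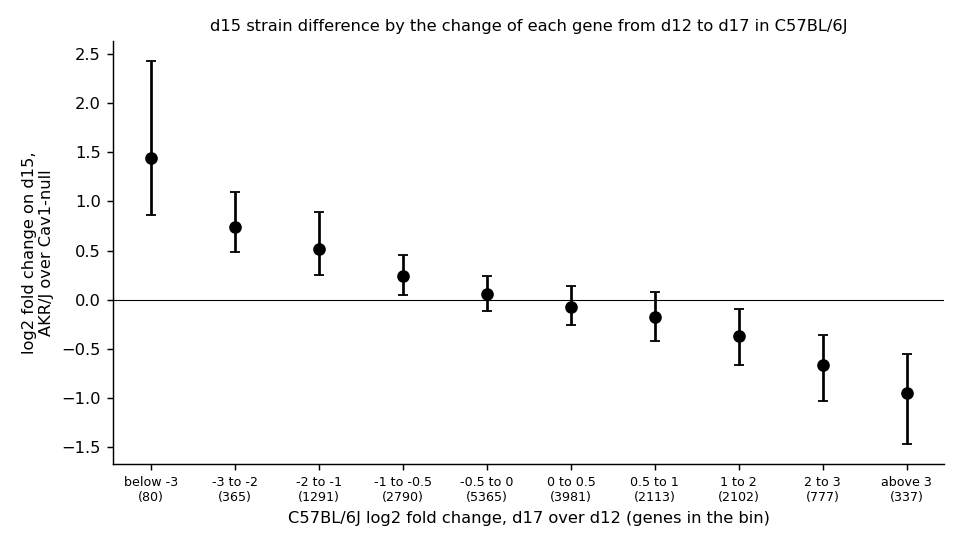
Log2 fold change of AKR/J over Cav1-null on d15, as median and quartiles, for genes binned by their log2 fold change from d12 to d17 in C57BL/6J, with the number of genes under each bin. The medians go from 1.44 in the genes that fell most with age to -0.95 in those that rose most.

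Genes of dividing cells were higher in AKR/J. Of 26 tested cell cycle genes, 21 were higher and 0 lower, by 0.34 to 1.56, and the median of the list was 0.72. Ccnd1 (cyclin D1), which drives entry into the cycle, was at 47.2, 68.9 and 74.4 CPM in AKR/J and 24.4, 21.1 and 18.1 CPM in Cav1-null. The lowest AKR/J library was above the highest of Cav1-null (log2 fold change 1.56, SE 0.18, adjusted p = 0.000894). Mcm2 and Mcm3, subunits of the helicase that opens DNA for replication, were higher by 1.15 (SE 0.12, adjusted p = 0.000465) and 1.16 (SE 0.13, adjusted p = 0.000954), and Cdc20, which activates the ligase that ends mitosis, by 0.90 (SE 0.10, adjusted p = 0.000705). In the 4 genes C57BL/6J lay within or above the range of AKR/J, as with Mcm2 at 79.3, 74.6 and 60.2 CPM against 38.6, 43.2 and 49.9 CPM in AKR/J and 18.7, 18.9 and 20.8 CPM in Cav1-null. Without Cav1-null replicate 2, 17 of the cell cycle genes were higher, and in the fit with AKR/J replicate 1 alone 20 were called higher.

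Stem cell and progenitor genes pointed mostly the same way. Of 14 intermediate progenitor and proneural genes, 7 were higher and 0 lower. Neurog1, a proneural transcription factor, was at 5.39, 3.33 and 6.1 CPM in AKR/J and 1.01, 1.34 and 1.19 CPM in Cav1-null (log2 fold change 2.04, SE 0.30, adjusted p = 0.0028), with no overlap. Dll3, a ligand-like inhibitor of Notch (1.01, SE 0.22, adjusted p = 0.0159), and Mfap4, a matrix protein (0.84, SE 0.24, adjusted p = 0.0434), were higher as well. Without AKR/J replicate 2 the value of Mfap4 was 0.48. Without Cav1-null replicate 2 the list had 2 higher members, and without AKR/J replicates 2 and 3 it had 9.

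Radial glia genes split. Of 18 tested, 8 were higher and 4 lower in AKR/J. Nes (nestin), an intermediate filament of neural stem cells, was at 139, 116 and 210 CPM in AKR/J and 69.5, 64.2 and 60.9 CPM in Cav1-null (1.23, SE 0.20, adjusted p = 0.00458). Hes1, the Notch effector that keeps stem cells undifferentiated, was higher by 1.05 (SE 0.12, adjusted p = 0.000955) and Sox9, a transcription factor of radial glia and later of astrocytes, by 1.03 (SE 0.15, adjusted p = 0.00256). The lower members included Dbi, the diazepam binding inhibitor, an acyl-CoA binding protein, at 149, 125 and 121 CPM in AKR/J and 237, 243 and 201 CPM in Cav1-null (-0.81, SE 0.11, adjusted p = 0.00167). The other lower members were Fabp7, a fatty acid binding protein (-0.67), Ptprz1, a receptor phosphatase (-0.51), and Tnc, a matrix glycoprotein (-0.33).

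Of 13 developmental timing genes, whose products mark or keep early embryonic programmes, 6 were higher and 0 lower. Hmga2, a chromatin protein of young stem cells, was at 13.8, 27.1 and 21.8 CPM in AKR/J and 5.14, 6.12 and 6.43 CPM in Cav1-null (1.80, SE 0.24, adjusted p = 0.00188). Its value was 1.20 without AKR/J replicates 2 and 3. Igf2bp1 and Igf2bp3, RNA-binding proteins of fetal tissue, were higher by 0.73 (SE 0.08, adjusted p = 0.000948) and 0.47 (SE 0.12, adjusted p = 0.0267), and Trim71, a repressor of differentiation, by 1.56 (SE 0.37, adjusted p = 0.0213), at 0.413 to 2.39 CPM. Lin28b, a blocker of let-7 maturation, was at -0.01 and not called. The list had 3 higher members without AKR/J replicates 2 and 3 and likewise without Cav1-null replicate 2, and Trim71 (1.14) and Igf2bp3 (0.44) were not called in the former.

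Receptors of the main transmitters that were called were lower in AKR/J. Of 13 GABA-A receptor subunits and chloride transporters, 10 were lower and 1 higher, and of 22 glutamate receptors, 11 were lower and 0 higher, with medians of -0.53 and -0.51. Gabra5, a GABA-A subunit known from the hippocampus, was at 15.3, 14.8 and 13.1 CPM in AKR/J and 31.3, 31.8 and 33.4 CPM in Cav1-null, without overlap (-1.19, SE 0.10, adjusted p = 0.000176). Gabrg1 (-1.36, SE 0.16, adjusted p = 0.000904) and Gabrb1 (-0.94, SE 0.08, adjusted p = 0.000218) encode further subunits. The higher member was Slc12a2, the NKCC1 transporter that loads immature neurons with chloride, at 113, 119 and 113 CPM in AKR/J and 88.0, 84.9 and 94.5 CPM in Cav1-null (0.34, SE 0.07, adjusted p = 0.0142). Slc12a5, the KCC2 transporter that extrudes chloride in mature neurons, was at -0.12 and not called.

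Grm5, the metabotropic glutamate receptor 5, was at 43.7, 38.8 and 47.2 CPM in AKR/J and 86.2, 91.4 and 85.9 CPM in Cav1-null (-1.05, SE 0.09, adjusted p = 0.000264). Grik1, a kainate receptor subunit (-0.98, SE 0.08, adjusted p = 0.000176), Grin2b, the NMDA receptor subunit of the fetal brain (-0.89, SE 0.08, adjusted p = 0.000311), and Gria2, the AMPA receptor subunit that sets calcium permeability (-0.83, SE 0.14, adjusted p = 0.00479), were lower too. In each of these 4 genes every AKR/J library was below every Cav1-null library, and without AKR/J replicates 2 and 3 the value of Gria2 was -0.54. In the fit with AKR/J replicate 1 alone, 10 glutamate receptors and 10 members of the GABA-A list were called lower. Without Cav1-null replicate 2 these counts were 6 and 9, and with 1 model of all 27 libraries they were 2 and 3.

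The synapse and the cortex followed with fewer calls. Of 24 genes of synaptic vesicles and release, 8 were lower and 1 higher. Syt4, a vesicle synaptotagmin (-0.68, SE 0.14, adjusted p = 0.0126), Cplx1, the complexin that clamps fusion (-0.63, SE 0.15, adjusted p = 0.019), and Pclo, the active zone scaffold piccolo (-0.61, SE 0.11, adjusted p = 0.00666), were lower. Sv2c, a vesicle protein of the basal ganglia and brainstem, was higher, at 20.6, 28.4 and 54.3 CPM in AKR/J and 16.7, 15.9 and 10.8 CPM in Cav1-null (1.23, SE 0.34, adjusted p = 0.0353), and was at 0.49 and not called without AKR/J replicates 2 and 3. Of 10 pan-neuronal markers, 3 were lower and 0 higher, Snap25 (a SNARE protein, -0.51), Gap43 (a growth cone protein, -0.48) and Stmn2 (a tubulin-binding protein, -0.48).

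Of 20 genes of cortical projection neurons, 5 were lower and 0 higher. Mef2c, an activity-regulated transcription factor of cortical neurons, was at 57.8, 65.2 and 31.5 CPM in AKR/J and 115, 124 and 127 CPM in Cav1-null (-1.27, SE 0.22, adjusted p = 0.00572). Rorb, a factor of layer 4 neurons (-0.78, SE 0.12, adjusted p = 0.00303), was lower as well, and Ldb2, a cofactor of LIM proteins, was at -0.71. Neurod6, a factor of young cortical neurons, was at 362, 162 and 162 CPM in AKR/J and 426, 400.0 and 484 CPM in Cav1-null (-0.96, adjusted p = 0.0482). In Neurod6 the gap rested on replicates 2 and 3, and it was -0.29 and not called without them.

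Genes of brain regions varied with the library. Of 28 regional patterning genes, 7 were higher in AKR/J and 0 lower, and the count was 17 without AKR/J replicate 2 and 2 without Cav1-null replicate 2. Pax5, a factor of the midbrain-hindbrain border, was at 13.2, 15.1 and 35.9 CPM in AKR/J and 9.01, 7.91 and 7.54 CPM in Cav1-null (1.37, SE 0.36, adjusted p = 0.0297). En2, a factor of the same border (1.16, SE 0.26, adjusted p = 0.0172), and Emx2, of the cortical hem and cortex (0.88, SE 0.10, adjusted p = 0.000857), were higher. The tested Hox genes had log2 fold changes of 1.59 to 2.31 and none was called, and AKR/J replicate 3 held most of their reads. Without both replicates, Pax5 was higher by 0.68.

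Glia and GABAergic neurons showed no common direction. Of 22 genes of GABAergic neurons, 3 were higher and 4 lower. Nkx2-1, which specifies the medial ganglionic eminence, was higher (0.68, SE 0.10, adjusted p = 0.00253), as were Nr2f2 of the caudal eminence (0.58) and Dlx2 (0.35). Htr3a, a serotonin-gated channel of interneurons (-1.68, SE 0.39, adjusted p = 0.0206), and Calb2 (calretinin, -0.70, SE 0.12, adjusted p = 0.00551), Sst (somatostatin, -0.47) and Foxp1 (-0.23) were lower. Of 17 astrocyte genes, Gja1 (connexin 43, 1.01) and Fgfr3 (an FGF receptor of glial precursors, 0.95) were higher and Gfap (-1.50) and Tnc (-0.33) lower. Of 12 genes of the oligodendrocyte lineage, Gpr17 (-1.26), Mog (-0.62) and Olig1 (-0.59) were lower and 0 higher. In the fit that left out AKR/J replicates 2 and 3, Gfap (-0.98), Mog (-0.45), Olig1 (-0.65) and Nr2f2 (0.31) were not called, and Gja1 was at 0.65 and Tnc at -0.54.

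Neuropeptide genes that were called were lower in AKR/J, but the list of monoamine and neuropeptide genes as a whole was not. Its median log2 fold change was 0.05, with 13 positive and 8 negative members. Of 21 monoamine and neuropeptide genes, 4 were lower, Avp (vasopressin, -2.04, SE 0.40, adjusted p = 0.00999), Cck (cholecystokinin, -1.09, SE 0.25, adjusted p = 0.0179), Tac1 (the substance P precursor, -0.88, SE 0.12, adjusted p = 0.00229) and Sst, and 1 was higher, Ddc, the enzyme that makes dopamine and serotonin (0.79, SE 0.24, adjusted p = 0.0474). Avp lay between 0.265 and 0.673 CPM in AKR/J and between 1.41 and 2.16 CPM in Cav1-null. Avp (-1.52) and Ddc (0.39) were not called without AKR/J replicates 2 and 3, and Cck was at -0.61.

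**Figure D4:**
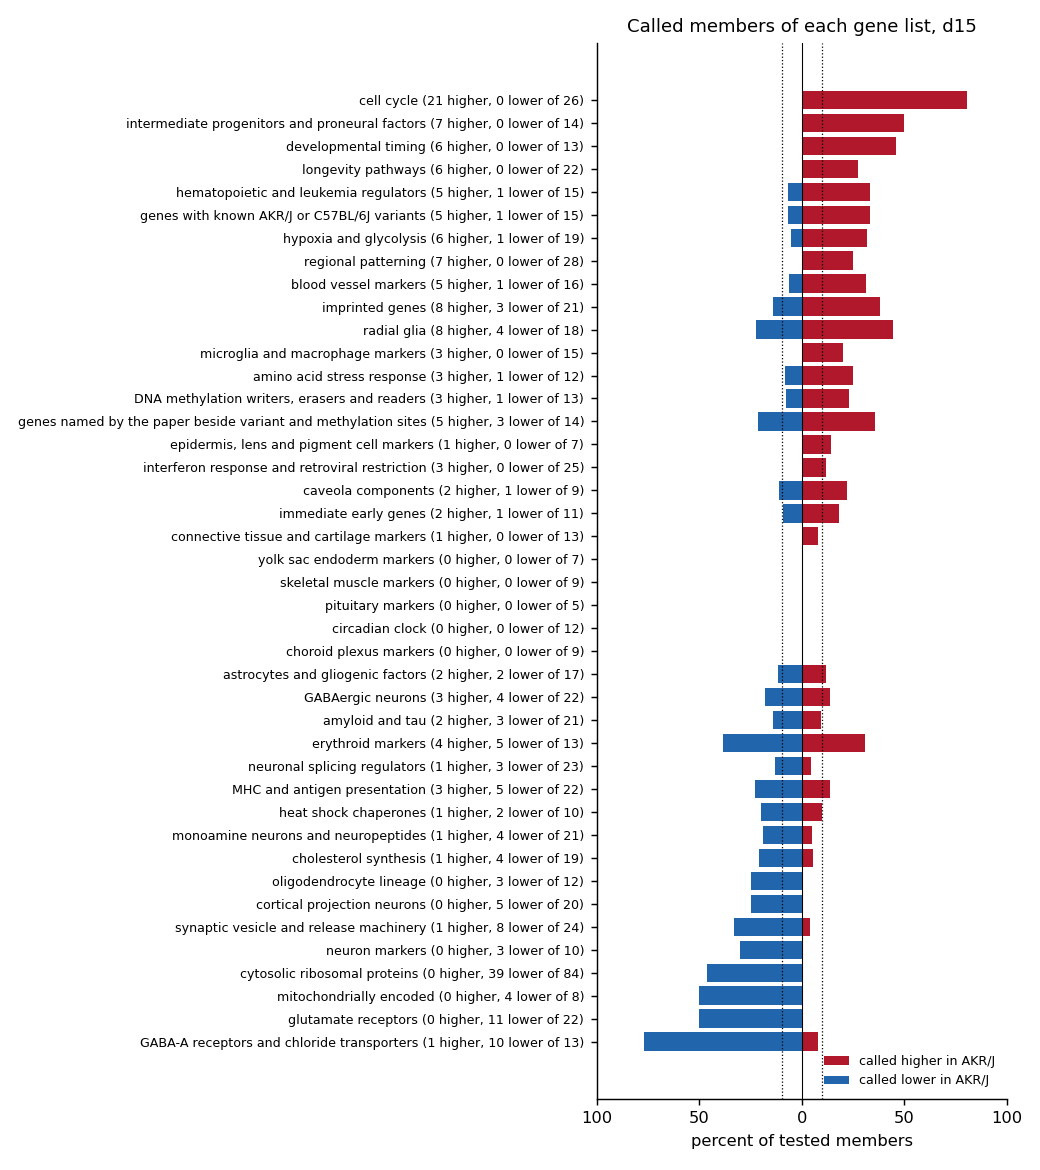
Percent of the tested members of each gene list that were called higher (right) or lower (left) in AKR/J, with the counts in the labels and dotted lines at 9.6% and 9.7%, the shares of all tested genes. Cell cycle genes reach furthest to the right, with 21 of 26 higher, and the GABA-A list furthest to the left, with 10 of 13 lower.

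Most of the largest rises in AKR/J were in pseudogenes. Processed pseudogenes are copies of messenger RNAs that were written back into the genome, and most lack introns. Of 751 tested, 105 (14.0%) were higher and 37 (4.93%) lower in AKR/J, and 86 were higher by at least 3 on the log2 scale against 8 lower by as much. Of the 10 genes with the largest rise among well-expressed DE genes, 8 were processed pseudogenes and the others, Eno1b and Hmga1b, are protein-coding copies of Eno1 (an enolase of glycolysis) and Hmga1 (a chromatin protein). Gm13394 (chr2:28823622-28824621), which is 99.9% identical to Gapdh, the glycolytic dehydrogenase, was at 53.5, 51.9 and 63.3 CPM in AKR/J and 0.112, 0.0344 and 0 CPM in Cav1-null (10.05, SE 0.31, adjusted p = 3.13e-07). Gm6969, a copy of the mitochondrial protein gene Cox7a2l, was at 59.1, 55.8 and 55.2 CPM against 0, 0.0688 and 0.108 CPM (9.76, SE 0.26). In both genes all AKR/J libraries were high and all Cav1-null libraries next to 0.

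A pair of such genes is shown for each of 2 parents with a stretch of their sequence, since reads from so similar genes differ in few bases. Each stretch is 90 bases, from the GRCm39 genome for the pseudogene and from the spliced transcript for the parent. It was chosen as the coding stretch without gaps that holds the most differences. The whole alignments hold 6 differences in 885 bases for Rpsa-ps10 and 9 in 1194 for Tdg-ps2. The capitals mark the bases in which the copies differ, and substitutions are counted from 1 at the first base of the stretch, with the parent's base first. Rpsa-ps10 (chr3:149778961-149779050, minus strand) is a copy of Rpsa, which encodes a protein of the small ribosomal subunit, and the stretch matches coding positions 130 to 219 of Rpsa, with T81C and C90T.
Rpsa-ps10: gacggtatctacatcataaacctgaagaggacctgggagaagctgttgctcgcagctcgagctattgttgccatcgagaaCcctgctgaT
Rpsa: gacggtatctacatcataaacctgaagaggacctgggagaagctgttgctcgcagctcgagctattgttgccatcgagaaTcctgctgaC
Tdg-ps2 (chr10:41930202-41930291, minus strand) is a copy of Tdg, the thymine DNA glycosylase that takes part in DNA demethylation, and the stretch matches coding positions 1012 to 1101, with T45C, G73A, A79G and G90A.
Tdg-ps2: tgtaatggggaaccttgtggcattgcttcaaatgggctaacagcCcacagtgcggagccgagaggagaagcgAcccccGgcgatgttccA
Tdg: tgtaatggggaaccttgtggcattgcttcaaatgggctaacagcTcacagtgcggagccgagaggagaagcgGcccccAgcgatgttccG

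Rpsa-ps10 was at 441, 467 and 376 CPM in AKR/J and 0.521, 0.516 and 0.61 CPM in Cav1-null (9.57, SE 0.14, adjusted p = 6.71e-09), while Rpsa itself was at 834, 885 and 709 CPM in AKR/J and 1623, 1632 and 1830 CPM in Cav1-null (-1.10, SE 0.11, adjusted p = 0.000382). Copy and parent moved in opposite directions, and their summed reads differed by -0.45 on the log2 scale. Tdg-ps2 was at 28.4, 24.7 and 33.7 CPM in AKR/J and 0.0372, 0 and 0.0359 CPM in Cav1-null, and Tdg at 47.7, 38.9 and 50.3 CPM against 86.1, 92.3 and 88.2 CPM (-0.99, SE 0.11, adjusted p = 0.000732). Gm6969 and its parent Cox7a2l summed to 187 ± 12.6 CPM in AKR/J and 188 ± 15.5 CPM in Cav1-null (SD, n = 3). The log2 ratio of the mean levels, with 0.5 CPM added to each mean as in the ratios that follow, was -0.52 for Cox7a2l and -0.01 for the sum. For Gm8730 and Rplp0, a protein of the ribosomal stalk, this ratio was -1.12 for the parent and -0.59 for the sum. For Gm15459 and Hspa8, a heat shock cognate chaperone, it was -0.61 and -0.30. For Tdg-ps2 and Tdg it was -0.95 and -0.25. For Eno1b and Eno1 the sum went further from 0, at 0.52 against 0.25 for Eno1, and for Hmga1b and Hmga1 it turned from -0.71 to 0.48.

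Of the 751 pseudogenes, 623 matched a protein-coding transcript. The median identity to that transcript was 98.9% in the 103 matched pseudogenes that were higher in AKR/J, 93.6% in the 29 that were lower and 95.3% in the 491 that were not called. An identity of at least 95% was found in 93.2%, 37.9% and 52.7% of them. Of the 85 matched pseudogenes that were higher by at least 3 on the log2 scale, 83 had a tested parent, which was lower in 45 cases, higher in 5 and not called in 33. The 75 distinct parents with levels had a median log2 ratio of -0.26. Adding a copy that was chosen for its rise in AKR/J raises this ratio by construction, so the sums are given as values only. How reads that match several genes were counted is not given in the sources used here. Values of a near-identical copy and of its parent are therefore uncertain where they stand alone, and the part of read assignment in these differences was not tested. Without all pseudogenes, 3662 other genes were DE, 1787 higher and 1875 lower.

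**Figure D5:**
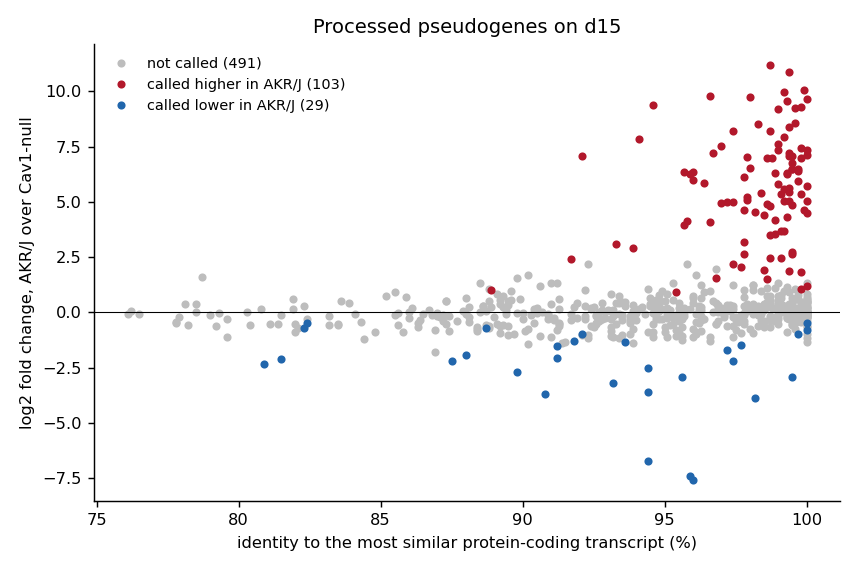
Log2 fold change of AKR/J over Cav1-null against percent identity to the most similar protein-coding transcript, 1 point per matched processed pseudogene. The large positive changes crowd at the right, where the median identity of the higher pseudogenes is 98.9% against 95.3% for those not called.

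Of 84 tested genes of cytosolic ribosomal proteins, a list added after the values were seen, 39 were lower in AKR/J and 0 higher, with a median of -0.31. Their summed level was 40041, 43340 and 34500 CPM in AKR/J and 50677, 50604 and 53107 CPM in Cav1-null, with no overlap, and 18728 to 19232 CPM in C57BL/6J. Rpl29 was at 116, 116 and 109 CPM in AKR/J and 537, 541 and 594 CPM in Cav1-null (-2.32, SE 0.08, adjusted p = 5.65e-07). Rpl34 (-2.16, SE 0.11, adjusted p = 1.27e-05), Rps2 (-1.80, SE 0.08, adjusted p = 4.75e-06) and Rpl30 (-1.78, SE 0.10, adjusted p = 1.4e-05) followed. Ribosomal protein genes were the parents of 17 of the 85 pseudogenes that rose most, among them those of Rpl29 (Gm8210) and Rps2 (Rps2-ps10), so these values carry the same uncertainty. The sum of Rps2-ps10 and Rps2 was still lower, by -1.11 against -1.77 for Rps2 alone as ratios of means. Without AKR/J replicate 2 the count was 55, without Cav1-null replicate 2 it was 18 and with 1 model of all 27 libraries it was 9.

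Globin genes showed a large exchange between AKR/J and Cav1-null. Hbb-y, the embryonic beta-like globin, was at 782, 1018 and 1629 CPM in AKR/J and 35.2, 49.1 and 42.8 CPM in Cav1-null (4.73, SE 0.29, adjusted p = 3.16e-05). The embryonic globins Hbb-bh1 (2.80, SE 0.33, adjusted p = 0.00103) and Hba-x (2.33, SE 0.29, adjusted p = 0.00126) were higher as well. The adult beta globins Hbb-bs, at 711, 1208 and 681 CPM against 1636, 2054 and 1983 CPM (-1.16, SE 0.21, adjusted p = 0.00709), and Hbb-bt (-1.66, SE 0.22, adjusted p = 0.00179) were lower. The embryonic genes and the adult beta genes thus differed in opposite directions in all 3 AKR/J libraries. The adult alpha gene Hba-a1, given below, was not called. Hbb-bs and Hbb-bt are near-identical, and their sum was 1080 ± 373 CPM in AKR/J and 2553 ± 292 CPM in Cav1-null (SD, n = 3).

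The adult alpha globin Hba-a2 (chr11:32246168-32247320) was at 0.303, 0.645 and 0.365 CPM in AKR/J and 338, 408 and 398 CPM in Cav1-null (-9.78, SE 0.19, adjusted p = 1.91e-08), while its near-identical neighbour Hba-a1 was at 450, 715 and 604 CPM against 453, 556 and 550.0 CPM and was not called (0.15, adjusted p = 0.53). Their sum was 590.0 ± 133 CPM in AKR/J and 901 ± 95.7 CPM in Cav1-null. Alas2, the erythroid heme synthesis enzyme (-1.53, SE 0.20, adjusted p = 0.00166), was lower and Epb42, a protein of the red cell skeleton (1.48, SE 0.44, adjusted p = 0.0467), higher. The summed level of 14 erythroid markers was 2157 to 3324 CPM, against 3109 to 3853 CPM in Cav1-null. Most of this sum was globin reads, whose genes were called in both directions, so it does not compare the blood content of the strains. When erythroid marker genes were left out of the table, 3888 genes were DE.

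Genes of immune recognition differed gene by gene. Of 22 tested genes of antigen presentation and the MHC region, 3 were higher and 5 lower. H2-D1, a classical class I antigen (chr17:35481691-35486475), was at 2.56, 3.06 and 2.95 CPM in AKR/J and 15.6, 14.2 and 14.7 CPM in Cav1-null (-2.40, SE 0.16, adjusted p = 4.7e-05). H2-T24 (-2.80, SE 0.30, adjusted p = 0.000658) and H2-Q2 (-3.65, SE 0.58, adjusted p = 0.00398), which are nonclassical class I genes, were lower, and H2-Q7 had no reads in AKR/J and 0.344 to 0.431 CPM in Cav1-null. The value of H2-Q2 was -4.23 without AKR/J replicate 2 and -4.76 without replicates 2 and 3. H2-K1, the other classical gene tested, was at 3.9, 4.01 and 4.34 CPM against 3.54, 4.98 and 2.41 CPM and was not called (0.14, adjusted p = 0.758). The higher members were the complement genes C4a (1.53, SE 0.17, adjusted p = 0.000819) and C4b (3.43, SE 0.93, adjusted p = 0.0343), which lie in the same region, and Tapbp, which loads peptides (0.70, adjusted p = 0.0154). The fifth lower member was Psmb10, a subunit of the immunoproteasome (-0.64, adjusted p = 0.016). C4b, a near copy of C4a, was at 0.505 to 0.883 CPM in AKR/J, and neither it (2.95) nor H2-Q7, still without reads in AKR/J, was called without AKR/J replicates 2 and 3. MHC class I genes are alike in sequence and vary between strains, so the share of reads each receives is uncertain.

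Of 25 genes of the interferon response and of defence against retroviruses, 3 were higher and 0 lower. They were Ifi202b, an interferon-inducible DNA sensor, at 1.82 to 2.45 CPM against 0 to 0.138 CPM in Cav1-null (4.84, SE 0.60, adjusted p = 0.00128), Apobec3, a deaminase that restricts retroviruses (1.02, SE 0.27, adjusted p = 0.0324), and Slc7a1, the arginine transporter that is also the receptor of ecotropic murine leukemia virus (0.66, SE 0.13, adjusted p = 0.00892). Apobec3 was at 7.04, 11.8 and 5.77 CPM in AKR/J, and its value was 0.68 without replicate 2, still called, and 0.95 to 1.08 and not called without any 1 of the Cav1-null libraries. The interferon-induced genes Isg15 (-0.36) and Ifit3 (-0.03) did not pass.

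Of 15 tested genes with known variants in AKR/J or C57BL/6J, 5 were higher and 1 lower. Glo1, the glyoxalase that is duplicated in some inbred strains, was at 95.6, 95.3 and 86.8 CPM in AKR/J and 44.3, 46.5 and 41.6 CPM in Cav1-null (1.04, SE 0.08, adjusted p = 9.31e-05). Alad, a heme synthesis enzyme also known to be duplicated in some strains, was at 51.6, 50.6 and 54.8 CPM against 21.6, 20 and 18.7 CPM (1.35, SE 0.09, adjusted p = 4.7e-05). Wdfy1, an endosomal adaptor, was at 103, 104 and 125 CPM against 47.4, 46.9 and 47.3 CPM (1.20, SE 0.10, adjusted p = 0.000162). In all 3 genes every AKR/J library lay above every Cav1-null library. Thy1, a surface glycoprotein of T cells and neurons, was lower, at 1.21, 3.02 and 1.53 CPM against 7.49, 7.63 and 5.28 CPM (-1.85, SE 0.35, adjusted p = 0.00824). Its value was -2.32 without AKR/J replicate 2 and -2.50 without replicates 2 and 3. Nnt, the mitochondrial transhydrogenase that is truncated in C57BL/6J, was at 4.17, 4.35 and 3.95 CPM against 2.94, 3.51 and 4.52 CPM and was not called (0.15, adjusted p = 0.665). The remaining higher members, Ifi202b and Apobec3, are described above.

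Slc7a11 (chr3:49846975-50398070), the cystine-glutamate exchanger that feeds glutathione synthesis, had one of the largest changes in a gene of high expression. It was at 159, 141 and 204 CPM in AKR/J and 11.5, 11.9 and 13.3 CPM in Cav1-null (3.75, SE 0.16, adjusted p = 2.63e-06), and on d12 and d17 it was higher by 2.95 and 2.91. Among 12 genes of the amino acid stress response, Psat1 (1.00, SE 0.13, adjusted p = 0.0015) and Phgdh (0.75, SE 0.12, adjusted p = 0.00495), both enzymes of serine synthesis, were higher too. Chac1, which degrades glutathione, was lower (-0.92, adjusted p = 0.0405), and the regulator Atf4 (-0.14) and its target Ddit3 (-0.22) did not pass.

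Among the genes with the largest fall, Myo7a (chr7:97699069-97768734), an unconventional myosin known from the hair cells of the ear, was at 2.46, 4.69 and 2.19 CPM in AKR/J and 34.1, 33.4 and 32.5 CPM in Cav1-null (-3.45, SE 0.25, adjusted p = 9.04e-05). Akr1e1, an aldo-keto reductase, was at 8.45, 5.98 and 3.08 CPM against 36.6, 34.4 and 40.4 CPM (-2.70, SE 0.29, adjusted p = 0.000683), and Dynlt1a, a dynein light chain of a multigene family, at 6.73, 6.76 and 8.36 CPM against 38.5, 34.4 and 40 CPM (-2.40, SE 0.13, adjusted p = 1.43e-05). Sla, a Src-like adaptor, was at 20.5, 8.87 and 6.6 CPM against 55.6, 54.0 and 67.2 CPM (-2.32, SE 0.36, adjusted p = 0.00354). In these 4 genes no AKR/J library reached the lowest Cav1-null library, and without AKR/J replicates 2 and 3 Sla was at -1.54. The others were the pseudogene Gpr137b-ps (-2.75), the long noncoding RNA D030028A08Rik (-2.55) and ENSMUSG00000095041 (-4.89), an identifier that the annotation used here does not hold. Among the genes with the smallest p were also Ppp1r14c, an inhibitor of protein phosphatase 1 (-1.79, SE 0.09, adjusted p = 5.99e-06), and Pop4, a subunit of ribonuclease P (-1.65, SE 0.09, adjusted p = 1.06e-05).

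Several imprinted growth regulators were higher in AKR/J. Of 21 imprinted genes, 8 were higher and 3 lower. Cdkn1c, an inhibitor of the cell cycle, was at 56.2, 125 and 92.9 CPM in AKR/J and 36.2, 36.6 and 29.0 CPM in Cav1-null (1.40, SE 0.25, adjusted p = 0.00638). Grb10, an inhibitor of growth factor signalling (1.24, SE 0.20, adjusted p = 0.00409), and Dlk1, a Notch-related ligand (1.19, SE 0.20, adjusted p = 0.00559), were higher. The lower members were the noncoding RNAs Meg3 (-0.45) and Rian (-0.47, SE 0.11, adjusted p = 0.0178), which share a cluster with Dlk1, and Snrpn (-0.42), a splicing protein gene. The highest value of Cdkn1c and of Grb10 was in AKR/J replicate 2, the library with connective tissue RNA. Without AKR/J replicates 2 and 3, the values were 0.71 for Cdkn1c, 0.76 for Grb10 and 0.70 for Dlk1, and the list had 7 members called higher and 5 lower.

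Of 22 tested genes of longevity pathways, 6 were higher and 0 lower. Irs1 and Irs2, which carry the insulin signal, were higher by 0.77 (SE 0.11, adjusted p = 0.00243) and 0.66 (SE 0.15, adjusted p = 0.0172), Rest, a repressor of neuronal genes, by 0.49 (SE 0.13, adjusted p = 0.036) and the tumour suppressor Trp53 by 0.45 (SE 0.09, adjusted p = 0.00898). The remaining higher members were Igf1r (0.37) and Rptor (0.40). The list had 2 higher and 1 lower member without AKR/J replicates 2 and 3 and 1 higher without Cav1-null replicate 2, and Irs2 (0.48), Rest (0.25) and Trp53 (0.31) were not called in the former.

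Of 15 hematopoietic and leukemia regulators, 5 were higher and 1 lower. Mecom, a zinc finger oncoprotein, was at 10.5, 17.6 and 17.5 CPM in AKR/J and 6.07, 7.18 and 4.92 CPM in Cav1-null (1.30, SE 0.24, adjusted p = 0.0072). Meis1, a homeobox partner of Hox proteins (0.83, SE 0.22, adjusted p = 0.0304), and Gata2, a factor of blood stem cells and of midbrain neurons, were higher. Gata2 was at 5.89, 17.4 and 15.0 CPM in AKR/J and 4.88, 5.53 and 3.56 CPM in Cav1-null (1.43, SE 0.37, adjusted p = 0.0299), and was at 0.32 and not called without AKR/J replicates 2 and 3. Ikzf1, the lymphoid factor Ikaros, was lower (-0.86, SE 0.21, adjusted p = 0.0249), and Tal1 (0.67) and Pim1 (0.67) were higher. Mecom was higher by 0.77 without AKR/J replicates 2 and 3, and Meis1 (0.36) and Ikzf1 (-0.65) were not called.

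Of the called genes of DNA methylation, 3 were higher in AKR/J and 1 was lower. The lower gene, Tdg, carries the uncertainty of its near copy Tdg-ps2. Its log2 ratio of means was -0.95 alone and -0.25 when summed with the copy. Of 13 tested genes, Uhrf1, which guides the maintenance methyltransferase to replicated DNA (1.10, SE 0.10, adjusted p = 0.000316), that methyltransferase Dnmt1 (0.38, SE 0.09, adjusted p = 0.0173) and the de novo methyltransferase Dnmt3a (0.54, SE 0.11, adjusted p = 0.0125) were higher, and Tdg was lower. Of 14 genes that the study names beside variant and methylation sites, a list that is not independent of these samples, 5 were higher and 3 lower. They included the long noncoding RNAs Gm2093 (1.64, SE 0.41, adjusted p = 0.0249) and Lncppara (-1.50, SE 0.45, adjusted p = 0.0483), Il17rd, an inhibitor of FGF signalling (0.93, SE 0.19, adjusted p = 0.0117), and Sh3pxd2a, a podosome scaffold (0.87, SE 0.26, adjusted p = 0.0458). Lncppara (-0.86) and Il17rd (0.46) were not called without AKR/J replicates 2 and 3, and Sh3pxd2a was at 0.49. Gm2093 was not called either, with a value of 1.78.

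Energy and lipid metabolism showed small sets of calls. Of 19 hypoxia and glycolysis genes, 6 were higher and 1 lower. Slc2a1, the glucose transporter of vessels and glia (0.98, SE 0.15, adjusted p = 0.00301), Hk2, a hexokinase (1.01, SE 0.27, adjusted p = 0.0318), and Slc16a3, a lactate exporter (1.11, SE 0.23, adjusted p = 0.0121), were higher, and Pfkp, the platelet-type phosphofructokinase, was lower at 537, 487 and 458 CPM against 939, 957 and 918 CPM (-0.95, SE 0.08, adjusted p = 0.000244). Of 19 cholesterol synthesis genes, Sc5d (-0.68, SE 0.09, adjusted p = 0.00167), Idi1 (-0.53, SE 0.10, adjusted p = 0.00782), Msmo1 (-0.41, SE 0.08, adjusted p = 0.00833) and Insig1 (-0.26) were lower and Srebf2, the regulator of the pathway, higher (0.50, SE 0.14, adjusted p = 0.038). Of 13 protein-coding genes of the mitochondrial genome, which nearly every cell uses, 5 had no reads in any of the 6 libraries, so the table does not hold the transcripts of this genome in full. Of the 8 tested, mt-Co1 (-0.54), mt-Nd2 (-0.42), mt-Nd4 (-0.39) and mt-Nd3 were lower, and mt-Nd3 had no reads in AKR/J and 0.447 to 0.859 CPM in Cav1-null. Hk2 (0.57), Slc16a3 (0.75) and Srebf2 (0.35) were not called without AKR/J replicates 2 and 3.

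In the remaining lists few members passed. Ide, the insulin-degrading enzyme that also cleaves amyloid peptide, was at 46.0, 47.6 and 50.5 CPM in AKR/J and 85.1, 82.9 and 83.2 CPM in Cav1-null (-0.83, SE 0.07, adjusted p = 0.000258), and of 21 amyloid and tau genes 2 were higher and 3 lower. Of 23 neuronal splicing regulators, Ptbp1, the repressor of neuronal exons, was higher (0.54, SE 0.08, adjusted p = 0.00389), and Celf2 (-0.59, SE 0.12, adjusted p = 0.0127, and -0.34 without AKR/J replicates 2 and 3), Khdrbs3 (-0.39) and Khdrbs2 (-0.37) were lower. Of 10 heat shock chaperones, Hspa5 was higher (0.37, and 0.16 without AKR/J replicates 2 and 3) and Hspa8 (-0.64) and Hspe1 (-0.59) were lower. Hspa8 carries the uncertainty of its copy Gm15459, described above. Of 11 immediate early genes, Jun (0.95, SE 0.12, adjusted p = 0.00118) and Ier2 (0.73) were higher and Npas4, a factor induced by neuronal activity, lower (-0.82, SE 0.15, adjusted p = 0.00691). Of 12 clock genes 0 were called at the adjusted threshold of edgeR's test, with log2 fold changes of -0.45 to 0.42, while 2 had an unadjusted p under 0.05 and DESeq2 called 0.

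Markers of other cell types were read beside these lists. Of 16 blood vessel markers 5 were higher and 1 lower, with sums of 297 to 344 CPM against 260.0 to 273 CPM in Cav1-null, and the endothelial cadherin Cdh5 was higher by 1.03 (SE 0.24, adjusted p = 0.0191) and the pericyte receptor Pdgfrb by 0.97 (SE 0.18, adjusted p = 0.00796). Of 15 microglia markers 3 were higher, Cx3cr1, Sall1 and P2ry12, by 0.57 to 0.61, with sums of 147 to 167 CPM against 114 to 121 CPM. Of the marker lists of tissues outside the brain, connective tissue had 1 call, the cartilage collagen Col2a1 (1.19, SE 0.29, adjusted p = 0.0222), and epidermis, lens and pigment cells had 1, the pigment enzyme Dct (1.04, SE 0.27, adjusted p = 0.029). Muscle, choroid plexus and pituitary markers had 0 calls in edgeR, with 3, 3 and 1 at an unadjusted p under 0.05 and 1 call each in DESeq2. Yolk sac markers had 0 by all of these. Without AKR/J replicates 2 and 3 the blood vessel list had 1 call, Cdh5 (0.45) and Dct (0.65) were not called, and Col2a1 was higher by 0.68. The part of vessel cells in the caveola and glucose transporter values was not tested.

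The same pair of strains was also sequenced on d12 and d17, in other libraries. On d17, 2516 of 20285 genes (12.4%) were DE between AKR/J and Cav1-null, with 5.73% higher and 6.67% lower, and on d12, 3906 of 19955 (19.6%), with 9.65% higher and 9.93% lower. Of the 3894 DE genes of d15, 1166 were DE in the same direction on d17, which is 29.9% of the d15 calls and 46.3% of the d17 calls, and 51 in the opposite direction. On d12, 965 were DE in the same direction (24.8% of the d15 calls and 24.7% of the d12 calls) and 275 in the opposite direction. In all 3 days 574 genes were called in 1 direction, 239 higher and 335 lower, and 2047 genes were called on d15 alone, 1228 higher and 819 lower. The spread between replicates differed between the days, with a biological coefficient of variation of 33.4% on d12, 20.3% on d15 and 12.3% on d17. The split along development was also present on the other days. Of the genes that rose with age in C57BL/6J, 29.3% were lower in AKR/J on d12 and 20.3% on d17, and of those that fell, 14.3% and 16.1% were higher. No library of AKR/J or Cav1-null had a part in defining these classes.

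Among genes called on all 3 days, those with the largest difference were again genes with next to no reads in one strain. The pseudogenes Gm46209 and Gm8210 had no reads in Cav1-null on d15 and 8.12 to 12.8 and 7.29 to 8.62 CPM in AKR/J, which is at least 290-fold and at least 227-fold higher, and the unprocessed pseudogene Gm3650 was at least 121-fold higher. In the other direction the long noncoding RNA AA388235 (chr17:34197396-34202217) had no reads in AKR/J and 11.2, 12.6 and 12.3 CPM in Cav1-null, at least 359-fold lower, and the noncoding RNA Gm49980 and the protein-coding gene model Gm32687 were at least 178-fold and at least 127-fold lower. Over the 9 libraries of each strain, 58 genes had at least 3 CPM in every AKR/J library and at most 15% of the lowest AKR/J value in every Cav1-null library, and 49 of them were pseudogenes. The reverse held for 4 genes, Hba-a2, 2410018L13Rik, Gm28455 and AA388235, of which 2410018L13Rik and Gm28455 are named after their values were seen.

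Some genes differed between the strains by an amount that itself differed between d15 and d17. A test of the interaction over 12 libraries called 462 of 21663 genes (2.13%), 320 (1.48%) with a larger value on d17 and 142 (0.655%) with a smaller one. Nr1h5, a nuclear receptor of the FXR kind, was higher in AKR/J by 5.52 on d15 and by 1.54 on d17. Its level was 8.04, 12.2 and 10.5 CPM in AKR/J against 0.0688 to 0.359 CPM on d15, and 1.06 to 2.18 CPM and 0.413 to 0.628 CPM on d17. Car8, a carbonic anhydrase-related protein of Purkinje cells, was lower by 2.31 on d15, at 3.97, 3.53 and 2.95 CPM against 17.0, 19 and 14.7 CPM, and its log2 fold change on d17 was -0.63. The count of the interaction test depends on the libraries, since it was 0 when Cav1-null replicate 3 of d15 was left out (3716 genes at an unadjusted p under 0.05) and 1793 with DESeq2.

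Splice junctions were compared as the presence of reads. A junction counted as found in 1 strain when it had at least 10 reads in each of that strain's 3 libraries and 0 in the 3 of the other. Of 28722 junctions with 10 reads in each AKR/J library, 96 were found in AKR/J alone, and of 27983 in Cav1-null, 224 in Cav1-null alone. The highest in AKR/J was an intron of Hsp90ab1, a heat shock protein (chr17:45882546-45882690), with 2640, 2498 and 2887 reads against 0, although the gene's total reads differed by 0.19 on the log2 scale and were not called (adjusted p = 0.2). Next were introns of the noncoding RNA Rian (1969 to 2442 reads), Eif3e, an initiation factor subunit (759 to 920 reads), Nudt3, a hydrolase (541 to 689), and of the overlapping genes Cnp and Dnajc7 (487 to 553). In Cav1-null, introns of Fau, a ribosomal fusion protein (5468 to 5977 reads), Tubb5, a tubulin (4376 to 5125), Prdx2, a peroxiredoxin (3001 to 3166), Ddx5, a helicase (2509 to 2656), and Hspa8 (1930 to 2067) led.

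Junctions with 0 reads need care, since the authors' filters took out some reads before the table was made. The part of sequence variants between the strains in these absences was not tested. Within AKR/J alone, 1137 junctions had 0 reads in 1 library and at least 100 in the other two, and within Cav1-null 1018, so that full absence beside high counts was found between replicates of 1 strain as well. Of the junctions found in 1 strain on d15, 16 in AKR/J and 42 in Cav1-null kept that pattern in all 9 libraries of both strains. In Nnt, which is truncated in C57BL/6J, the intron chr13:119509128-119518211 had 0 reads in AKR/J and 6, 18 and 14 in Cav1-null, and the intron chr13:119476482-119491194 had 44, 34 and 32 reads against 14, 15 and 10. In Soat1, the sterol acyltransferase with a known deletion in AKR/J, the intron chr1:156285575-156301717 had 18, 29 and 21 reads in AKR/J and 0, 3 and 0 in Cav1-null. The shorter intron from the same site, chr1:156285575-156294250, had 1, 0 and 0 reads in AKR/J and 14, 14 and 15 in Cav1-null, so the strains used different exons at this site, while the gene's total reads did not pass the test (-0.09, adjusted p = 0.619). The junctions of Soat1 were singled out after their values were seen.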

How the data were processed

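RNA of whole fetal brain was sequenced after poly-T selection. Per the labels and the methods, the authors used FastQC for quality checks, cutadapt and fastp for trimming and STAR for mapping to GRCm39. The deposited gene table holds counts of reads for each Ensembl gene, not normalized. The deposited junction table holds counts of reads across each junction from 2-pass mapping, after the authors left out multi-mapped, short-overhang and rarely found junctions. Junctions were assigned with an Ensembl annotation of GRCm39. For the gene table, the counting tool, its use of strand and its treatment of reads with several matches are not given in the sources used here, nor are the versions of the tools.

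Here, libraries were grouped by labels. Counts were tested in R 4.3.3 with edgeR 4.0.16 (filterByExpr, TMM, quasi-likelihood test, Benjamini-Hochberg adjusted p under 0.05), and standard errors (SE) were derived from the fold change and its F statistic. The limit for a count of 0 is 3 reads over a group and covers counting error only. Coordinates are from GENCODE vM39, which matched 98.8% of 55416 identifiers, and pseudogenes were matched to transcripts with blastn 2.17.0. Replicates differed beyond sampling noise, with a chi-square per degree of freedom of 5.53 to 79.2. In simulated data of 19740 genes for this comparison, 59% of the genes changed 2-fold and 93% of those changed 4-fold were recovered, with 6.17% false calls. The simulation changed 200 genes, far fewer than were called here, and gave both strains the same spread. The spread differed between the strains in the data, so these shares need not hold for them. Alternatives were DESeq2 1.42.0, the likelihood ratio test, other scalings and filters, a fold threshold, models of 9 or 27 libraries, thinning, a replicate block and leaving out libraries. Leaving out pseudogenes or AKR/J replicates 2 and 3 together was added after seeing the data.

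Genes were named by a rule, namely those with the largest change or smallest p, those called on all 3 days, up to 4 called members of each list, called neighbours of Cav1 and the leading junctions. Other members of short lists were named to complete a count. The comparison and the gene lists were chosen with earlier results of these data known. DNA methylation and variants were not analysed here, and some called members of the lists are counted but not reported by name.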

Additional observations from a re-analysis of the deposited data

Results flagged for a closer look

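In 6 genes the difference between AKR/J and Cav1-null itself differed between d15 and d17 by the interaction term (quasi-likelihood F in edgeR, Benjamini-Hochberg adjusted p = 0.013 in each). They are the 3 genes in each direction with the smallest p. Nfe2l3, a stress-responsive transcription factor, changed by 1.36 (SE 0.18) on the log2 scale, from 15.1 to 21.5 CPM in AKR/J against 19 to 21.8 CPM in Cav1-null on d15 to 42.5 to 50.8 CPM against 17.3 to 20.4 CPM on d17. Car8 changed by 1.66 (SE 0.23), with 19.8 to 31.6 CPM on d17 against 38.9 to 43.3 CPM in Cav1-null. Snhg5, a host gene of small nucleolar RNAs, changed by 0.78 (SE 0.10), from a log2 fold change of -0.30 on d15 to 0.48 on d17. Nr1h5 changed by -3.98 (SE 0.58). Col4a2, a collagen of basement membranes, changed by -1.08 (SE 0.16), from 29.5 to 39.1 CPM against 20.7 to 24.1 CPM on d15 to 31.3 to 37.5 CPM against 48.1 to 51.6 CPM on d17. Lrp4, a synaptic receptor of agrin, changed by -0.97 (SE 0.14), since it was at 46.8 to 49.9 CPM against 21.1 to 25.1 CPM on d15 and between 14.3 and 18.5 CPM in both on d17. Lrp4 was called in 9 of the 12 fits that left out 1 library and the other 5 genes in 11 each.

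Among 62 genes that were on (at least 3 CPM) in all 9 libraries of AKR/J and off (at most 15% of the lowest of those values) in all 9 of Cav1-null, or the reverse, 8 were on in 1 C57BL/6J library of d15 and off in another, in data that the comparison does not use. Over all 9 C57BL/6J libraries 31 of the 62 genes were on in at least 1 library and off in another. One of them was Hmga1b, at 16.7, 16.1 and 0.0538 CPM in the C57BL/6J libraries of d15.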

How the results depend on the processing

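Of 178 genes named, 69 stayed on their side of the threshold in every alternative that tested them, and no called gene changed direction in 3692 pairs of gene and alternative. Nfe2l3, not called on d15, went from -0.10 to 0.04 without AKR/J replicate 3 and to 0.05 without replicates 2 and 3. The 3894 DE genes were 1181 when a 2-fold difference was required and 1586 with 1 model of all 27 libraries, and ranged from 1746 to 4503 when 1 library was left out, while DESeq2 gave 4791. With the 2-fold requirement and with the model of all 27 libraries, genes called in the same direction on d17 (1166) were 569 and 765, those on d12 (965) were 434 and 561, ranging from 617 to 1029 without 1 library, and DE genes among those that change with age in C57BL/6J (1819) were 502 and 813, ranging from 905 to 1996. The interaction between days (462) was 1793 with DESeq2, 1997 with no filter on low counts, and 0 to 1130 without 1 library. Junctions found in 1 strain (320) were 848 when 2 of 3 libraries sufficed and 515 to 564 without 1 library. Of the named genes, 59 to 65 lost their call when a Cav1-null library was left out, 6 to 23 when an AKR/J library was, and 44 without AKR/J replicates 2 and 3. Fewer libraries or a stricter rule account for part of these changes by construction, and the cause of the rest was not tested.

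Libraries with the same replicate number did not clearly deviate together (Pearson r of 0.09, 0.18 and -0.16 across genes). With 3 libraries per strain these values cannot decide whether the numbers pair the samples, and the main test used no block. With the replicate block 2736 genes were DE, 996 were shared with d17, 801 with d12 and 1409 were genes that change with age, and the interaction fell to 34 genes. Not every sample correlated best with its own number, since AKR/J replicate 1 was closer to Cav1-null replicate 3 (0.15), while AKR/J replicate 2 was closest to Cav1-null replicate 2. At the depth of 26846313 reads or more, a gene under about 0.1 CPM has few reads in a library, and its fold change is imprecise.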

Other observations

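Hmga1b and Rps2-ps10, which were next to 0 in Cav1-null, were at 16.7, 16.1 and 0.0538 CPM and at 37.1, 33.1 and 0.296 CPM in the 3 C57BL/6J libraries of d15, and Atp6v0c-ps2, a copy of a proton pump subunit gene, at 14.7, 15.8 and 0.215 CPM. In Rpsa-ps10 the odd library was the same but the other way, at 0.126, 0.159 and 102 CPM. Gm6969 and Gm15459 were high in another library, replicate 1, at 13.4 and 84.3 CPM against at most 0.0529 and 2.36 CPM in the other two. Replicates of 1 inbred strain thus differed widely in these genes, and the cause was not tested.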
